A study of Rattus norvegicus with 14 samples.

Results

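The genes described are the amino acid, glucose and neurotransmitter transporters of the solute carrier subfamilies Slc1, Slc2, Slc3, Slc5, Slc6, Slc7, Slc36 and Slc38. Every non-control probe whose gene name in the scanner files starts with one of these subfamily names was taken. This gave 99 probes for 78 genes, of 35482 gene names on the array. The subfamilies held 7 Slc1, 9 Slc2, 2 Slc3, 12 Slc5, 18 Slc6, 15 Slc7, 4 Slc36 and 11 Slc38 genes. One of the 78, Slc7a6os, matched by name only, since it is the gene on the opposite strand beside Slc7a6 and no transporter. The files' Slc5a4a and Slc6a20 are now listed by RefSeq as Slc5a4 and Slc6a20a.

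Each of 7 rat cell lines was hybridised to 2 one-colour arrays, called A and B, which made 14 arrays. The blastocyst lines were Fi1 (Fischer, male), Fi2 (Fischer, female) and Wk8 (Wistar-Kyoto, female), and the bone marrow lines were CL19 (Fischer, female), 3C3 (Fischer, male) and RMAPC-1 (Fischer, male). These 6 lines are called stem cell lines below, and the male Fischer mesenchymal line RClone-2 was the control. The line was the unit of replication, because the labels do not say whether arrays A and B came from separate cultures, and the mesenchymal group was 1 line whose spread was taken from the other groups.

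Uptake of nutrients through the plasma membrane sets what a cell can use for growth. Slc1 carriers take up glutamate, aspartate or small neutral amino acids, Slc2 carriers let hexoses pass down their gradient, and Slc5 carriers pull glucose, inositol, iodide or vitamins in with sodium. Slc6 carriers clear neurotransmitters, creatine and taurine with sodium and chloride. Slc7 proteins are cationic amino acid carriers or light chains that need an Slc3 heavy chain to reach the membrane, Slc36 carriers move amino acids, most of them with protons, and Slc38 carriers move glutamine and other small neutral amino acids. The visceral endoderm, a later derivative of the hypoblast, is an absorptive epithelium that feeds the early embryo.

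Levels are log2 processed signals minus the 75th percentile of the same array, so 0 is the level of a fairly bright spot. They compare lines for one probe, and not one probe with another. The percentile itself ranged from 745.7 to 891.5 over the blastocyst lines and from 558.9 to 660.1 over the bone marrow lines, and it was 599.0 and 630.7 in RClone-2. Of 8 hypoblast markers measured, 7 passed the test as higher in the stem cell lines than in RClone-2, and 7 of 7 mesenchymal markers passed as lower. Slides 1 and 3 held Fi1, Fi2, Wk8 and CL19, and slides 2 and 4 held 3C3, RMAPC-1 and RClone-2. Over the transporter genes the median absolute difference between arrays A and B was 0.50 in RMAPC-1, with 13 genes over 1. In the other lines it was 0.17 to 0.29, with 1 to 5 genes over 1. In such bulk samples, fewer cells of one type and less RNA per cell cannot be told apart.

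A gene was tested where arrays A and B of some line were both well above background, which held for 54 of the 78 genes and for 24828 genes in all. These were 7 of 7 Slc1, 8 of 9 Slc2, 2 of 2 Slc3, 5 of 12 Slc5, 10 of 18 Slc6, 10 of 15 Slc7, 2 of 4 Slc36 and 10 of 11 Slc38 genes. On all 14 arrays 36 genes were above background, and on no array 14. The untested genes included the intestinal and renal glucose carrier Slc5a1, the liver glucose carrier Slc2a2, the light chain Slc7a8 and the cystine carrier Slc7a11. Slc7a11 and Slc7a8 were not well above background on any array, and Slc5a1 and Slc2a2 were above it on 1 bone marrow array each. Other untested genes were Slc5a4a, Slc5a4b, Slc5a7, Slc5a9, Slc5a10, Slc5a12, Slc6a3, Slc6a5, Slc6a7, Slc6a13, Slc6a14, Slc6a15, Slc6a18, Slc7a4, Slc7a10, Slc7a13, Slc36a2, Slc36a3 and Slc38a3. Among them are the dopamine carrier, Slc6a3, and the choline carrier, Slc5a7.

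**Figure D1:**
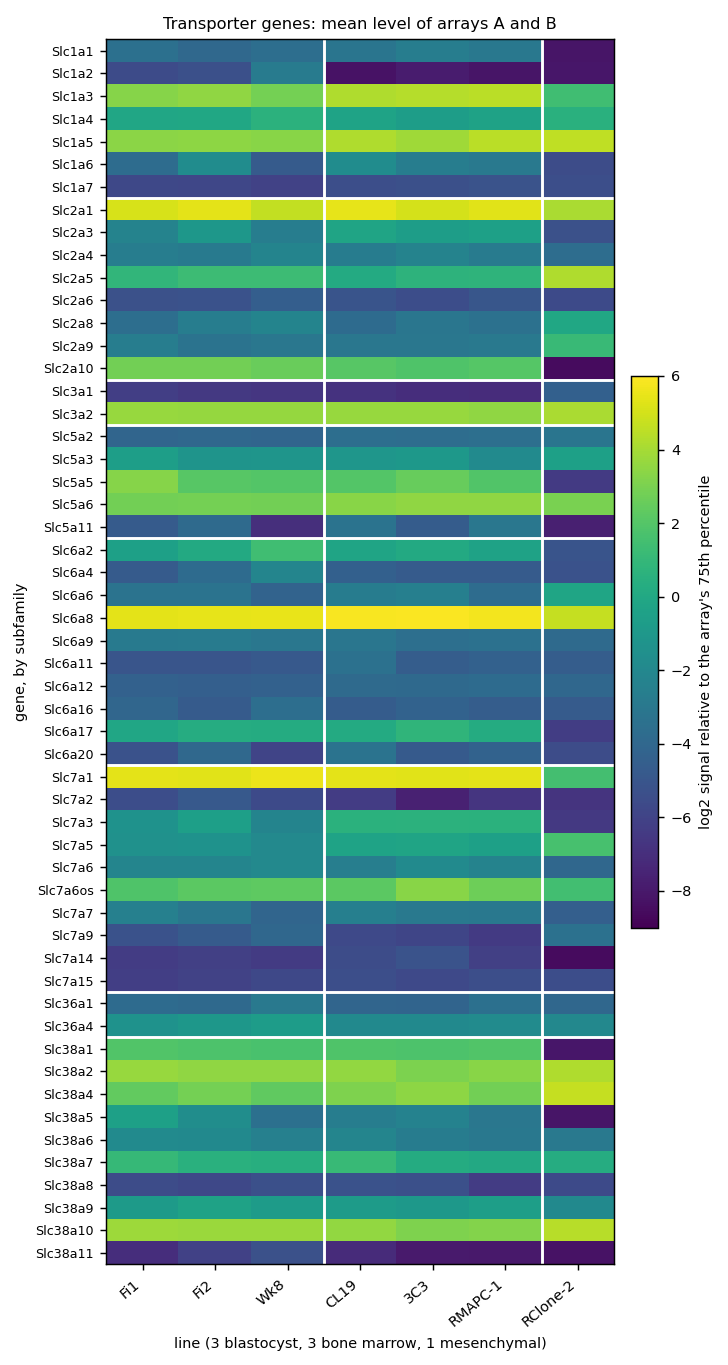
Mean level of arrays A and B for the 54 tested genes (rows, by subfamily) in each of the 7 lines (columns), as log2 signal relative to the 75th percentile of the array. Colours compare lines within a row; Slc38a1, Slc2a10 and Slc5a5 are dark in RClone-2 alone, while Slc2a9, Slc2a5 and Slc2a8 are brightest there.

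The first comparison asked how transport genes of the stem cell lines differed from those of the mesenchymal line. A cationic amino acid carrier (Slc7a1), glutamine carriers (Slc38a1, Slc38a5), glutamate carriers (Slc1a1, Slc1a3), glucose carriers (Slc2a3, Slc2a1, Slc2a10) and the iodide carrier Slc5a5 were higher in the stem cell lines. The fructose and urate carriers Slc2a5 and Slc2a9, the taurine carrier Slc6a6 and the large neutral amino acid carrier Slc7a5 were lower. The heavy chain of Slc7a5, Slc3a2, passed as lower too, but lost that call under 12 of 21 alternatives. In the limma fit with Benjamini-Hochberg adjustment over all genes and a threshold of 0.05, 18 of the 54 were higher, where 24.8% of all genes tested were higher. Another 13 were lower, where 22.5% of all genes were lower, and 23 did not pass. The median difference was 0.62 over the transporter genes and 0.03 over all genes. Of the 31 transporter genes that passed, 24 had a measured difference of more than 2-fold, a share not counted over all genes. Of the 18 higher, Slc1a1, Slc2a10, Slc5a5, Slc7a14, Slc38a1 and Slc38a5 were above background on no RClone-2 array and entered the test through the stem cell lines alone. With only genes above background on all 14 arrays tested, 10 of 36 were higher and 11 lower. Of 17889 genes in all under that filter, 8438 passed, 55.1% of them higher. The medians were then 0.32 and 0.06. By subfamily, 4 Slc2 genes were higher and 3 lower of 8, 4 Slc7 genes were higher and 2 lower of 10, 4 Slc6 genes were higher and 1 lower of 10, and 3 Slc38 genes each were higher and lower of 10.

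**Figure D2:**
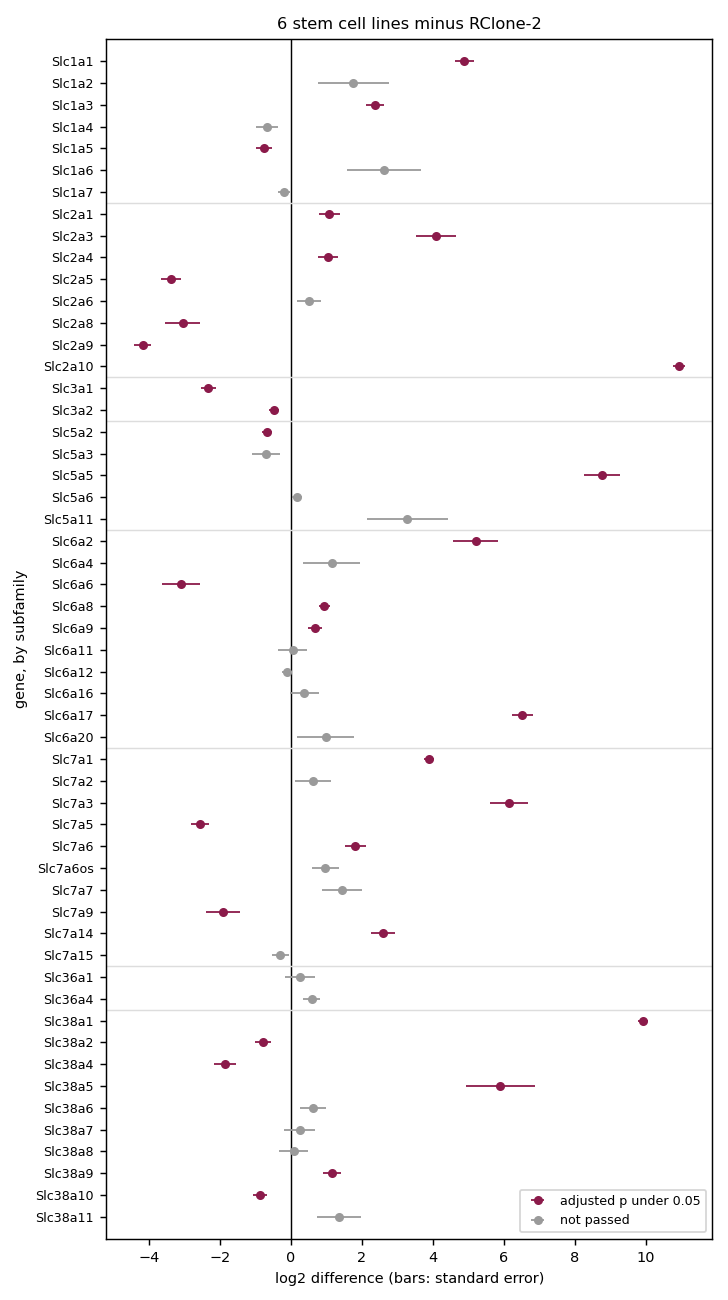
Log2 difference of the 6 stem cell lines from RClone-2 for the 54 tested genes, with the standard error from limma as a bar; dark red points passed at an adjusted p under 0.05. The points run from -4.18 for Slc2a9 to 10.93 for Slc2a10, with those of genes not above background in RClone-2, Slc2a10 and Slc38a1 among them, drawn as measured and not as bounds, and 18 dark red points lie to the right of 0 and 13 to the left.

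Slc7a1, the main arginine and lysine carrier of most cells, stood at 5.36, 5.33 and 5.54 in Fi1, Fi2 and Wk8. It stood at 5.38, 5.34 and 5.41 in CL19, 3C3 and RMAPC-1, and at 1.49 and 1.51 on the 2 RClone-2 arrays. On this probe, the brightest, the 6 stem cell lines lay within 0.21 of each other and none came near the control. The log2 difference was 3.89 ± 0.15 (SE, 6 lines against 1; limma adjusted p = 1.03e-05), or 14.9-fold. On the second Slc7a1 probe, above background on all 14 arrays, the stem cell lines ran more widely, from 1.03 in 3C3 to 1.89 in Fi2, against -1.39 in RClone-2. Slc7a3, a cationic carrier known from embryonic cells and neurons, was at -1.35, -0.56 and -2.24 in the blastocyst lines, at 0.59, 0.65 and 0.56 in the bone marrow lines and at -6.54 in RClone-2, where 1 of 2 arrays was above background. All 6 stem cell lines were thus higher, by 6.14 ± 0.54 (limma adjusted p = 0.000324). The third cationic carrier, Slc7a2, was above background on the 6 blastocyst arrays only.

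Slc7a5, a light chain, exchanges leucine and other large neutral amino acids for glutamine. It was at -1.40, -1.33 and -1.94 in the blastocyst lines, at -0.28, -0.25 and -0.49 in the bone marrow lines and at 1.62 in RClone-2, a difference of -2.57 ± 0.26 (limma adjusted p = 0.000554) or 5.93-fold. Every stem cell line lay below the control. Slc3a2, the heavy chain that Slc7a5 binds, ranged from 3.50 to 3.71 over the stem cell lines and was 4.12 in RClone-2. Its difference was -0.48 ± 0.14 (limma adjusted p = 0.0363). That call was lost without Fi1, Fi2, CL19, 3C3 or RMAPC-1, each left out in turn, with adjusted p-values from 0.0517 to 0.0679. It was lost too after quantile normalization, on unscaled signals, after normexp correction, without the B arrays and without the A arrays (-0.37, limma adjusted p = 0.174). Slc7a6, a light chain that exchanges arginine for glutamine, was higher in the stem cell lines (-2.60 to -1.80 against -3.98), by 1.82 ± 0.30 (limma adjusted p = 0.00391). The related light chain Slc7a7, mutated in lysinuric protein intolerance, was at -4.08 to -2.44 against -4.45 and did not pass (1.44 ± 0.56, limma adjusted p = 0.0780).

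The heavy chain Slc3a1 and its light chain Slc7a9 make the renal cystine carrier, and both were lower in the stem cell lines. Slc3a1 was at -7.07 to -6.20 in them and at -4.38 in RClone-2, and it was above background on 2 blastocyst, 2 bone marrow and 2 RClone-2 arrays. The difference was -2.32 ± 0.21 (limma adjusted p = 0.000339), and it was -0.43 and did not pass (adjusted p = 0.558) after normexp background correction. Slc7a9 was at -6.45 to -4.02 against -3.41, above background on 2 of 6 bone marrow arrays, with a difference of -1.91 ± 0.47 (limma adjusted p = 0.0179) that also did not pass after normexp correction (-0.56, adjusted p = 0.344). Slc7a14, a lysosomal member, was higher (2.59 ± 0.34, limma adjusted p = 0.00163), but RClone-2 was not well above background. Against the lowest signal called above background it was at least 1.30-fold higher, and the call was lost after normexp correction (0.35, adjusted p = 0.695).

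Slc38a1, a sodium-coupled glutamine carrier, was at 1.91, 1.80 and 1.68 in the blastocyst lines, at 1.87, 1.78 and 1.94 in the bone marrow lines and at -8.09 in RClone-2, where neither array was well above background. The stem cell lines differed among themselves by at most 0.26. Slc38a1 was at least 286-fold higher in them (measured log2 difference 9.92 ± 0.15; limma adjusted p = 1.10e-06). Its probe lies at chr7:135254473-135254532 on the minus strand of rn4, and its first 30 of 60 bases are shown to identify the transcript that carries this difference.
Slc38a1 probe: tcgtccctttatttaaaaatcacgaaccag

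Slc38a5, which carries glutamine, histidine and serine, was also not above background in RClone-2 (-8.17) and varied more among the stem cell lines. It was at -0.48, -1.62 and -3.45 in Fi1, Fi2 and Wk8 and at -2.66, -2.33 and -3.08 in CL19, 3C3 and RMAPC-1. It was at least 16.7-fold higher (measured difference 5.90 ± 0.97; limma adjusted p = 0.00411), though the call was lost after normexp correction (1.73, adjusted p = 0.121). Other members of the subfamily went the other way. Slc38a4, a placental and hepatic carrier of neutral and cationic amino acids, was at 2.34 to 3.45 in the stem cell lines and at 4.69 in RClone-2 (-1.86 ± 0.31, limma adjusted p = 0.00410). Slc38a2, induced by amino acid shortage in many cells, was at 3.07 to 3.68 against 4.23 (-0.79 ± 0.21, limma adjusted p = 0.0258). Slc38a2 did not pass without RMAPC-1 (-0.78, adjusted p = 0.0510). Its call was also lost after quantile normalization, on unscaled signals, after normexp correction, with the mean of probes and without the A arrays. The second Slc38a2 probe, above background on all 14 arrays, gave -0.26 and did not pass (limma adjusted p = 0.657). Slc38a10 was lower by a similar amount (-0.87 ± 0.20, limma adjusted p = 0.0145). Slc38a9, the lysosomal arginine sensor of mTORC1, was at -0.34 in Fi2, its highest stem cell line, and at -1.87 in RClone-2, and was higher by 1.16 ± 0.25 (limma adjusted p = 0.0117).

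Of the glutamate carriers, Slc1a3 was well above background everywhere. It was at 3.28, 3.52 and 2.86 in the blastocyst lines, at 4.21, 4.31 and 4.43 in the bone marrow lines and at 1.39 in RClone-2. The stem cell lines did not overlap the control and were higher by 2.37 ± 0.25 (limma adjusted p = 0.000698), or 5.19-fold. The 2 RClone-2 arrays stood apart at 1.96 and 0.83, and without the B arrays of all lines the difference was 1.71. Slc1a1, the carrier of neurons and of kidney and gut epithelium, was at -3.94 to -2.62 in the stem cell lines and not above background in RClone-2 (-8.18). It was at least 8.22-fold higher (limma adjusted p = 4.19e-05). The call held under all 20 alternatives that tested it, but the log2 difference was as low as 1.06 among them, below this bound. The small neutral amino acid carriers behaved differently. Slc1a5, the glutamine exchanger often raised in tumours, was at 3.35 to 4.45 against 4.54 (-0.76 ± 0.23, limma adjusted p = 0.0373), and that call was lost under 14 of 21 alternatives. It was lost without Fi1, Fi2, Wk8 or CL19 (adjusted p 0.0539 to 0.0691) and without the A arrays (adjusted p = 0.316). Quantile normalization, unscaled signals and normexp correction lost it too. Slc1a4 did not pass, with -0.63 to 0.62 in the stem cell lines and 0.54 in RClone-2 (limma adjusted p = 0.113).

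**Figure D3:**
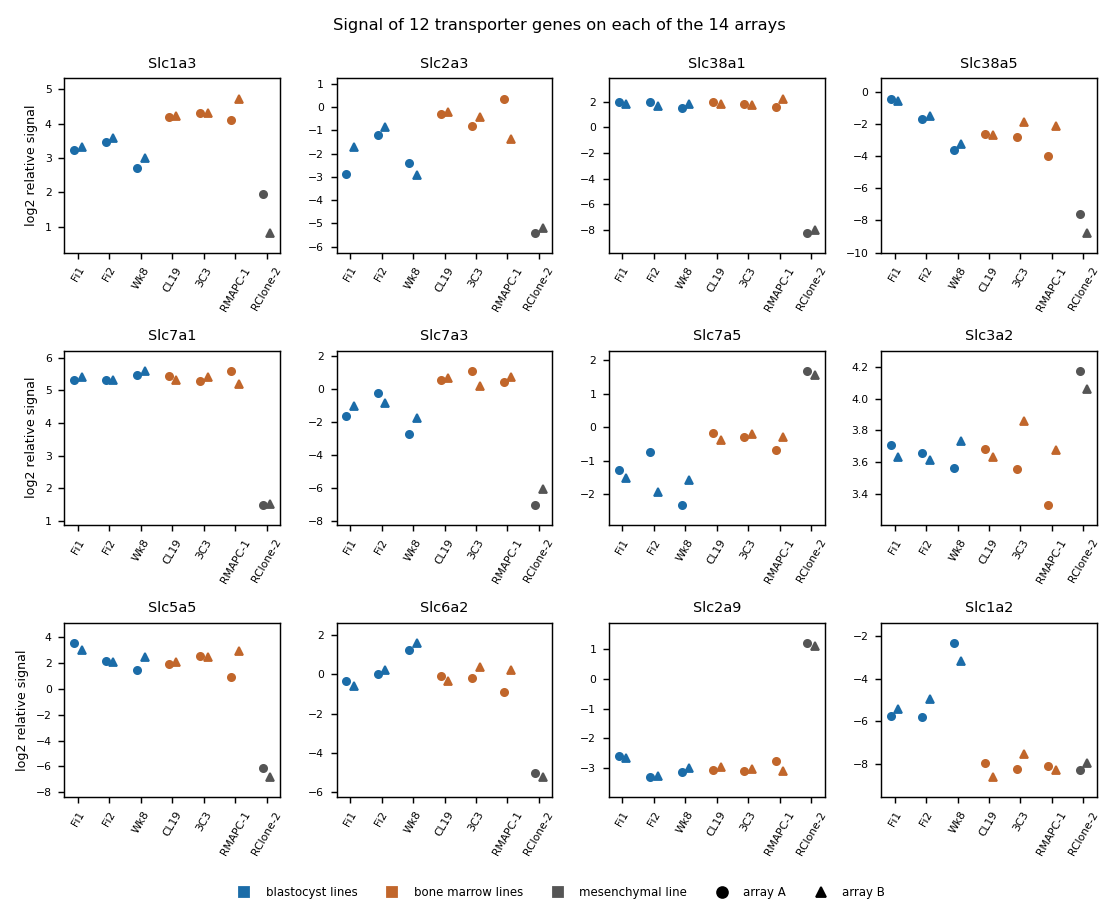
Level of 12 transporter genes on each of the 14 arrays, as log2 signal relative to the array's 75th percentile (vertical axes differ between panels). Circles are arrays A and triangles arrays B; Slc7a1 and Slc38a1 stay within a narrow band over the 6 stem cell lines, and Slc1a2 is high on the 6 blastocyst arrays, from -5.78 to -2.33.

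Glucose and hexose carriers split into higher and lower members. Slc2a1, the widespread basal glucose carrier, was at 5.11, 5.41 and 4.64 in the blastocyst lines, at 5.42, 5.04 and 5.35 in the bone marrow lines and at 4.08 in RClone-2. It was higher by 1.08 ± 0.30 (limma adjusted p = 0.0283), a call lost without Fi1, CL19 or RMAPC-1 (adjusted p 0.0552 to 0.0554) and without the A arrays (adjusted p = 0.162). Slc2a3, the high-affinity carrier of neurons and early embryos, was at -2.29, -1.04 and -2.66 in the blastocyst lines, at -0.26, -0.63 and -0.49 in the bone marrow lines and at -5.31 in RClone-2. All 6 were higher, by 4.08 ± 0.56 (limma adjusted p = 0.00201) or 16.9-fold. The insulin-responsive Slc2a4 was higher by 1.04 ± 0.29 (limma adjusted p = 0.0285), a call lost without Fi1 (adjusted p = 0.0511), without the B arrays (0.73, adjusted p = 0.164) and after normexp correction (0.61, adjusted p = 0.128).

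Slc2a9, a urate carrier, was at -3.29 to -2.65 in the stem cell lines and at 1.17 in RClone-2. The difference was -4.18 ± 0.24 (limma adjusted p = 5.77e-05), or 18.1-fold. Slc2a5, the fructose carrier, was at 0.85, 1.28 and 1.31 in the blastocyst lines, at 0.15, 0.73 and 0.73 in the bone marrow lines and at 4.22 in RClone-2 (-3.38 ± 0.29, limma adjusted p = 0.000298). Slc2a8, an intracellular hexose carrier, was at -3.78 to -2.25 against -0.08 (-3.05 ± 0.50, limma adjusted p = 0.00410). For these 3 genes no stem cell line reached the control.

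Slc2a10, a carrier tied to arterial tortuosity, had 2 probes that gave unlike sizes. On the brighter one the blastocyst lines stood at 2.81, 2.80 and 2.59, the bone marrow lines at 2.11, 1.87 and 2.05 and RClone-2 at -8.56, with neither RClone-2 array above background. This probe was at least 416-fold higher in the stem cell lines (measured difference 10.93 ± 0.17; limma adjusted p = 1.10e-06). On the other probe, above background on all 14 arrays, the lines stood at -1.75, -2.12, -2.03, -2.63, -2.83 and -2.62 against -5.10, a difference of 2.77. Both probes put all 6 stem cell lines above RClone-2, and they lie at different places in the gene. Their first 30 of 60 bases are given because the size of the difference turns on which is read, with positions chr3:156571746-156571805 for the brighter and chr3:156567628-156567687 for the other, both on the plus strand of rn4.
Slc2a10 brighter probe: tggctcaagtcagagttgccataaggagga
Slc2a10 other probe: tctcatggccttgtctgtcagtggcatagg

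Slc5a5, the sodium iodide carrier of the thyroid, was at 3.27, 2.13 and 1.97 in the blastocyst lines, at 1.98, 2.53 and 1.94 in the bone marrow lines and at -6.46 in RClone-2. It was not well above background in RClone-2 and was at least 397-fold higher in the stem cell lines (measured difference 8.77 ± 0.50; limma adjusted p = 5.48e-05). Of the other Slc5 genes, the renal glucose carrier Slc5a2 was lower (-4.12 to -3.50 against -3.14; -0.67 ± 0.14, limma adjusted p = 0.0108). Its second probe gave a difference of 0.47 that did not pass (limma adjusted p = 0.451), and the call was lost after normexp correction (-0.27) and without the A arrays. The inositol carrier Slc5a3 (-0.70 ± 0.39), the vitamin carrier Slc5a6 (0.17 ± 0.14) and Slc5a11 (3.28 ± 1.15) did not pass.

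Among the Slc6 carriers, the noradrenaline carrier Slc6a2 was at -0.45, 0.10 and 1.42 in the blastocyst lines, at -0.21, 0.09 and -0.35 in the bone marrow lines and at -5.11 in RClone-2. It was higher in all 6 stem cell lines, by 5.21 ± 0.63 (limma adjusted p = 0.00120). Slc6a17, a vesicular carrier of neutral amino acids, was at -0.14 to 0.79 against -6.26, where 1 of 2 RClone-2 arrays was above background (6.52 ± 0.29, limma adjusted p = 1.84e-05). The creatine carrier Slc6a8 was higher by 0.94 ± 0.14 (5.38 to 5.89 against 4.69; limma adjusted p = 0.00294). The glycine carrier Slc6a9 passed at 0.68 ± 0.20 (limma adjusted p = 0.0357) and lost the call under 9 of 21 alternatives. It was lost without Fi1, Fi2 or RMAPC-1 (adjusted p 0.0586 to 0.0683) and without the B arrays (0.44, adjusted p = 0.353). Quantile normalization, median centring and normexp correction lost it too. The taurine carrier Slc6a6 was at -4.24 to -2.53 in the stem cell lines and at -0.18 in RClone-2, lower throughout (-3.10 ± 0.54, limma adjusted p = 0.00501). The serotonin carrier Slc6a4, the GABA and betaine carriers Slc6a11 and Slc6a12, Slc6a16 and Slc6a20 did not pass. Neither Slc36 gene tested passed, with 0.26 ± 0.43 for Slc36a1 and 0.58 ± 0.25 for Slc36a4.

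Markers of other cell types that use these carriers were read beside these values. Of 7 neuron markers on the array 2 were not above background on any array, and of the 5 tested 2 were higher (Tubb3, Elavl3) and 3 lower (Snap25, Map2, Elavl4). Their summed level ran from 0.51 to 2.20 in the blastocyst lines, from 0.59 to 1.61 in the bone marrow lines and from 0.10 to 0.43 in RClone-2. Astrocyte markers summed to 3.69 to 4.74, 4.27 to 5.22 and 4.62 to 4.73 in the same order. Kidney and gut epithelium markers summed to 1.91 to 4.68, 4.77 to 6.11 and -2.35 to -2.13, with Lrp2 and Cubn, receptors also of the visceral endoderm, higher in the stem cell lines and 3 of 8 not above background on any array. Blood markers summed to -3.17 to -1.84, -3.47 to -0.27 and -4.09 to -3.83, and adipocyte markers to -5.76 to -3.74, -5.11 to -4.71 and -3.56 to -3.35. Their part in the transporter differences was not tested.

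**Figure D4:**
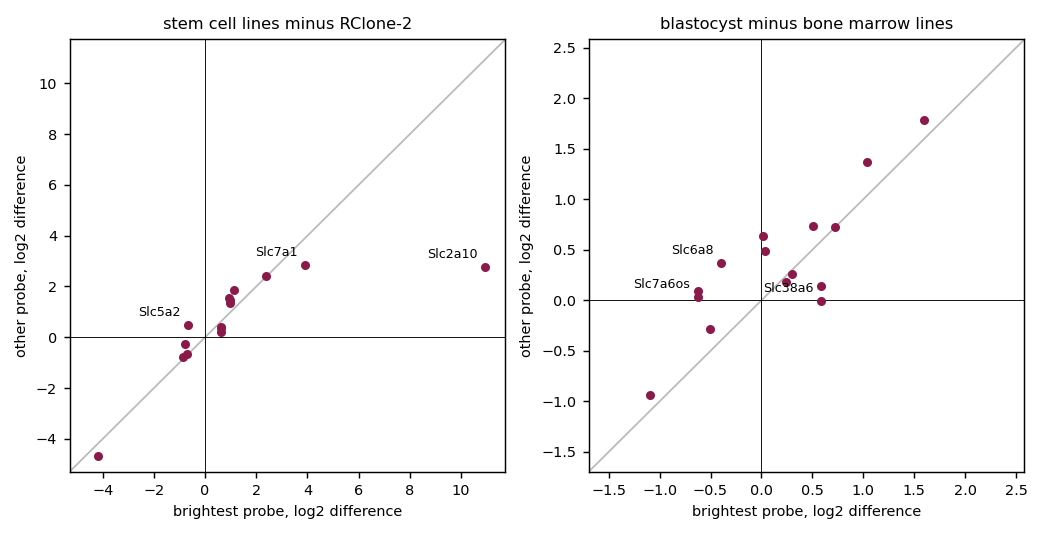
Log2 difference on the brightest probe (horizontal) against that on every other tested probe of the same gene (vertical), for 15 probe pairs of 13 genes, in each of the main comparisons; the grey line marks equal values and genes are named where signs oppose or values differ by over 1. Slc2a10 lies far off the line at 10.93 against 2.77, where the brightest probe was not above background in RClone-2 and so has no measured size, and Slc5a2 and Slc6a8 are pairs with opposite signs.

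At least 2 probes were tested for 13 genes, which made 15 pairs. For the stem cell lines against RClone-2, 1 pair had opposite signs (Slc5a2) and 3 differed by over 1 as measured (Slc2a10, whose brightest probe has only a bound, Slc5a2 and Slc7a1). The second Slc7a1 probe gave 2.86 against 3.89. For the blastocyst against the bone marrow lines, 4 pairs had opposite signs, of Slc6a8, Slc7a6os (2 pairs) and Slc38a6, and none differed by over 1. The Slc7a6os probe used lies on the minus strand of rn4 and the other 2 on the plus strand, that of the Slc7a6 probe, so these 2 pairs do not compare probes of one strand.

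The control and 2 bone marrow lines shared slides 2 and 4. Within these slides all 31 genes called for the bone marrow lines against RClone-2 had the same sign as in the whole fit. The differences were 9.95 for Slc38a1, 3.88 for Slc7a1, 8.70 for Slc5a5 and -4.18 for Slc2a9. The fit within these slides reuses the values of RClone-2 and of 2 bone marrow lines that went into the calls. The shared sign is therefore no separate support. With the slide as a block the stem cell comparison gave 17 genes higher and 11 lower, and calls of Slc2a1 (0.93, adjusted p = 0.103), Slc6a9, Slc1a5 and Slc3a1 were lost. Of the 31 calls of the stem cell comparison, 19 passed under every alternative in which the gene was tested, and none changed sign. Among these 19, Slc1a1, Slc2a10, Slc5a5, Slc6a17, Slc7a3 and Slc38a1 were not above background on every RClone-2 array. The filter on all arrays therefore left them out and did not test their calls.

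The second comparison asked how transport genes differed between stem cell lines of blastocyst and of bone marrow origin. Here 8 of the 54 were higher in the blastocyst lines, where 8.25% of all genes tested were higher, and 11 were lower, where 24.6% of all genes were lower. The other 35 did not pass. Of the 8, Slc1a2, Slc7a2 and Slc38a11 were above background on no bone marrow array and entered the test through the blastocyst lines alone. With only genes above background on all 14 arrays tested, 3 of 36 were higher and 8 lower. Of 17889 genes in all under that filter, 7187 passed, 23.4% of them higher. The cationic carrier Slc7a3, the glucose carrier Slc2a3, the leucine carrier Slc7a5 and the glutamate carrier Slc1a3 led the 11 genes lower in the main fit. The scaling bears on this split. The median of all genes lay at -0.22, and among all genes called 25.1% were higher in the blastocyst lines. That share was 37.5% after quantile normalization and 40.5% after median centring. It was 42.0% where detected probes alone set the percentile, and 82.6% on unscaled signals. The median transporter gene lay at 0.03.

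**Figure D5:**
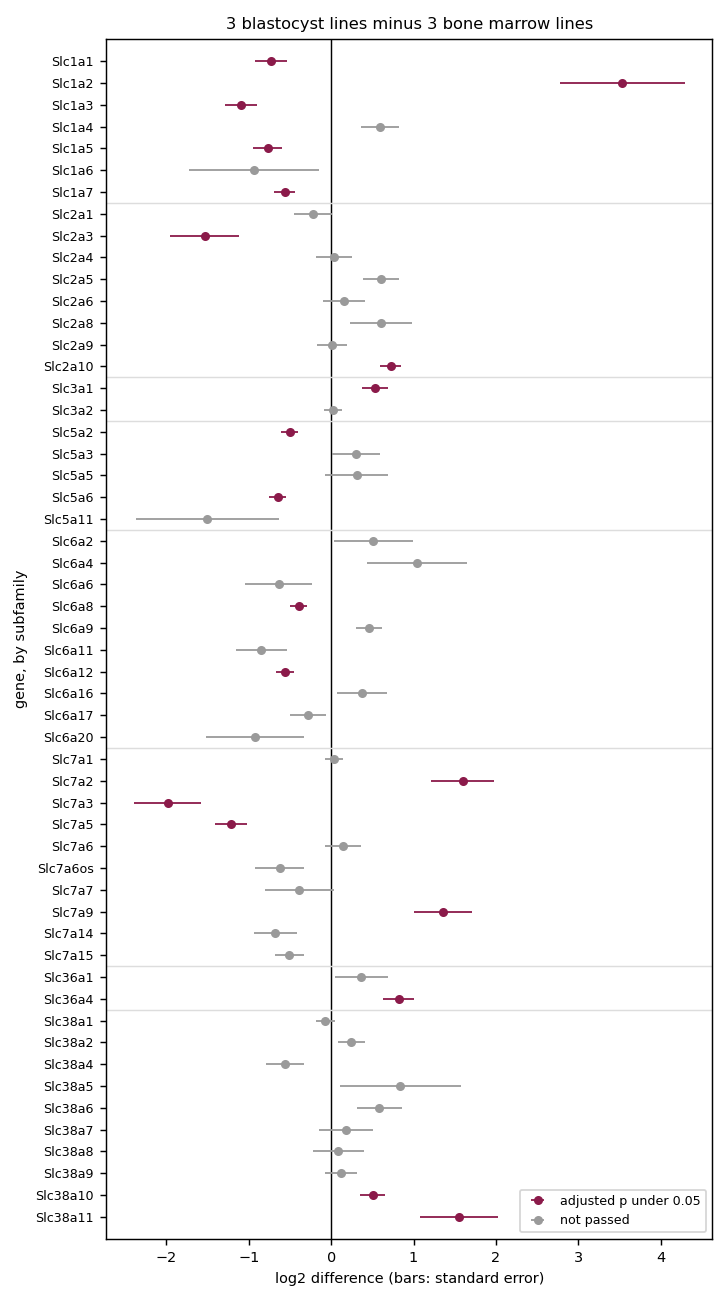
Log2 difference of the 3 blastocyst lines from the 3 bone marrow lines for the 54 tested genes, with the standard error from limma as a bar; dark red points passed at an adjusted p under 0.05. Slc1a2 lies at 3.54 and Slc7a3 at -1.98, and the median over all genes on the array was -0.22.

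Slc1a2, the main glutamate carrier of astrocytes, was at -5.60, -5.36 and -2.75 in Fi1, Fi2 and Wk8 and at -8.26, -7.88 and -8.17 in CL19, 3C3 and RMAPC-1. Wk8 stood well above the other 2 blastocyst lines, and all 6 blastocyst arrays but no bone marrow or RClone-2 array was above background. The gene was at least 2.78-fold higher (measured difference 3.54 ± 0.76, 3 lines against 3; limma adjusted p = 0.0204). The call was lost without CL19, 3C3 or RMAPC-1 (adjusted p 0.0580 to 0.0653). Within slides 1 and 3, which hold the blastocyst lines and CL19, the difference was 3.69. A second Slc1a2 probe was not above background on any array. Of the astrocyte markers, 3 of 5 were not above background on any array, and neither tested one passed in this comparison.

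Slc7a2, a cationic carrier of liver and activated macrophages, was at -5.47, -4.79 and -5.62 against -6.36, -7.62 and -6.69 and at least 1.68-fold higher (measured 3.03-fold; limma adjusted p = 0.0273). Its second probe gave 1.78 (limma adjusted p = 0.0218). Slc36a4, a proton-independent carrier of proline and tryptophan, was at -1.35, -1.06 and -0.69 against -1.85, -1.90 and -1.79. Its lines did not overlap (0.82 ± 0.19, limma adjusted p = 0.0236). Slc2a10 was higher by 0.72 ± 0.13 (limma adjusted p = 0.0132), and by 0.73 on its other probe. Slc7a9 (1.36), Slc3a1 (0.53) and Slc38a10 (0.51) also passed, of which Slc3a1 was above background on 2 of 6 blastocyst and 2 of 6 bone marrow arrays. Slc38a11 passed as well, but it was above background on 3 of 6 blastocyst arrays and on 0 of 6 bone marrow arrays, and no fold is given.

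Slc7a3 was lower in the blastocyst lines than in the bone marrow lines (-1.98 ± 0.41, limma adjusted p = 0.0187). The bone marrow lines lay within a narrow band, 0.56 to 0.65, and the blastocyst lines spread from -2.24 to -0.56. Slc2a3 was lower too (-1.54 ± 0.42, limma adjusted p = 0.0383), and its line values, given above, did not overlap. Slc7a5 differed by -1.22 ± 0.19 (limma adjusted p = 0.0106). Slc1a3 differed by -1.10 ± 0.19 (limma adjusted p = 0.0128), and by -0.93 on its second probe. Slc5a6, the carrier of biotin and pantothenate, was at 2.80, 2.84 and 2.78 against 3.35, 3.52 and 3.51 (-0.65 ± 0.11, limma adjusted p = 0.0115). Slc1a5 (-0.77), Slc1a1 (-0.73), Slc1a7 (-0.57), Slc6a12 (-0.56), Slc5a2 (-0.50) and Slc6a8 (-0.40) passed as lower too. Slc6a8 turned to 0.08 on unscaled signals and was 0.37, not passed, on its second probe.

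Slc7a1 and Slc38a1, both far above the control, did not pass between the origins (0.03 ± 0.11 and -0.07 ± 0.12). The second Slc7a1 probe gave 0.49 and did not pass either (limma adjusted p = 0.0860). Nor did Slc2a1 (-0.22 ± 0.23), Slc3a2 (0.03 ± 0.11), Slc2a9 (0.01 ± 0.18), Slc5a5 (0.31 ± 0.38) or Slc6a2 (0.51 ± 0.48). Slc1a4, Slc1a6, Slc2a6, Slc5a3, Slc5a11, Slc6a4, Slc6a11, Slc6a16, Slc6a20, Slc7a6os, Slc7a7, Slc7a15, Slc36a1, Slc38a6, Slc38a7 and Slc38a8 were the 16 genes that passed neither main comparison. The signs of Slc7a1, Slc38a1, Slc2a1 and Slc3a2 turned under some alternatives.

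Few of these calls held when single lines were left out. Without RMAPC-1, 15 of the 19 were lost, with adjusted p-values from 0.0579 to 0.133, and Slc1a3, Slc2a10, Slc5a6 and Slc7a5 remained. Without 3C3, 13 were lost, without CL19 and without Fi1 11 each, without Fi2 10 and without Wk8 7. Calls over all genes fell as well, from 8149 to 3095 without RMAPC-1, 3113 without 3C3 and 3716 without Fi1. They fell to 5582 without CL19, 5948 without Fi2 and 6210 without Wk8, so the losses are not particular to transporter genes. Without array A of RMAPC-1, 10 were lost, among them Slc1a1 at -0.38. Without array B of RMAPC-1, Slc3a1 fell to 0.09 (adjusted p = 0.863) and Slc38a11 missed narrowly (adjusted p = 0.0502). Slc1a3 alone kept its call in each of these fits and in those without all A or all B arrays, but it lost the call with the slide as a block (-0.99, adjusted p = 0.109), within slides 1 and 3 and on unscaled signals (-0.62, adjusted p = 0.0695). With the slide as a block the origins meet only on slides 1 and 3, so CL19 alone stands for bone marrow. In that fit the difference was 3.69 for Slc1a2 and -0.54 for Slc5a6. Within slides 1 and 3, against CL19 alone, all 19 kept their sign. That fit reuses the values of CL19 and the blastocyst lines that went into the calls, so the shared sign is no separate support.

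Each origin was also set against RClone-2, which all these comparisons share as their control. For the blastocyst lines 21 genes were higher (22.4% of all genes) and 10 lower (26.4% of all genes). For the bone marrow lines 20 were higher (26.8%) and 11 lower (19.4%). With only genes above background on all 14 arrays tested, 11 of 36 were higher and 11 lower for the blastocyst lines. For the bone marrow lines 13 of 36 were higher and 10 lower. Of 17889 genes in all under that filter, 8655 passed for the blastocyst lines, 46.5% of them higher. For the bone marrow lines 8461 passed, 62.2% of them higher. Slc7a3 stood 5.15 ± 0.58 above RClone-2 in the blastocyst lines and 7.14 ± 0.58 above it in the bone marrow lines. For Slc2a3 these values were 3.31 and 4.85, and for Slc7a5 -3.18 and -1.96. Slc36a4 passed in the blastocyst lines (0.99 ± 0.26, limma adjusted p = 0.0234) and was 0.17 ± 0.26 in the bone marrow lines. Slc5a6 passed in the bone marrow lines (0.50 ± 0.15, limma adjusted p = 0.0389) and was -0.15 ± 0.15 in the blastocyst lines. Slc5a11, an inositol carrier, was at least 6.35-fold higher in the bone marrow lines than in RClone-2 (limma adjusted p = 0.0384).

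Genes also differed in how far the 6 stem cell lines spread. The range over these lines had a median of 1.17. On the brightest probe it was smallest for Slc3a2 (0.20), Slc7a1 (0.21) and Slc38a1 (0.26), the 3 genes under 0.5. The second Slc7a1 probe ran more widely, from 1.03 in 3C3 to 1.89 in Fi2. The range was over 2 for 11 genes, of which Slc1a2, Slc7a2 and Slc38a11 were not above background in the bone marrow lines, so that their ranges have no measured lower end. Among the others it was 3.90 for Slc5a11, 2.99 for Slc1a6, 2.97 for Slc38a5 and 2.89 for Slc7a3. Slc5a11 was above background on 5 of 6 blastocyst arrays. Its lowest line, Wk8, stood at -8.19 on array A and at -5.75 on array B, so the lower end of its range is uncertain. Wk8, the only line from a Wistar-Kyoto rat, was the lowest stem cell line for Slc5a11 (-6.97 against -4.71 to -3.07 in the others), Slc38a5, Slc1a6, Slc7a3 and Slc6a20. It was the highest for Slc1a2, for the serotonin carrier Slc6a4 (-2.20 against -4.70 to -3.73) and for Slc38a11. These genes were singled out after their values were seen, and with 1 such line strain cannot be told apart from the line itself.

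Genes that work with these carriers were read from lists. Of 14 other amino acid and peptide carriers tested, 8 were higher in the stem cell lines than in RClone-2 and 2 lower, with a median of 1.26, beside 24.8% higher, 22.5% lower and a median of 0.03 over all genes. Slc43a1, a carrier of branched-chain amino acids, was at -0.05 to 0.87 in the stem cell lines and at -6.97 in RClone-2 (7.45 ± 0.18, limma adjusted p = 2.44e-06), with 1 of 2 RClone-2 arrays above background. Slc43a3, a purine base carrier, was at least 88.6-fold higher. The peptide carrier Slc15a1 was at least 19.9-fold higher, and the aromatic amino acid carrier Slc16a10 at least 16.0-fold. Of 10 brush border proteins that bind or work beside such carriers, 5 were higher and 1 lower, beside the same shares of all genes. The scaffold Pdzk1 (7.27 ± 0.71), its partner Pdzk1ip1 (6.33 ± 0.45) and the peptidase Mme (4.75 ± 0.29) were higher, and the peptidase Enpep was lower (-2.09 ± 0.47). Between the origins 5 of these 10 were lower in the blastocyst lines, where 24.6% of all genes were lower, among them Pdzk1ip1 (-2.06 ± 0.34), Dpp4 (-3.17 ± 0.62) and Cltrn (-3.19 ± 0.93), a partner of Slc6 carriers, and the other 5 did not pass.

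Of 31 genes of glycolysis and lactate export, 5 were higher in the stem cell lines than in RClone-2 and 11 lower, with a median of -0.52, beside 24.8% of all genes higher and 22.5% lower. The lactate exporter Slc16a3 was at 6.16 to 7.10 against -2.97 (9.78 ± 0.29, limma adjusted p = 4.19e-06). The monocarboxylate carrier Slc16a7 was not above background in any stem cell line and was at least 94.5-fold lower, and the hexokinase Hk3 (-8.94 ± 0.61) and the enolase Eno3 (-4.36 ± 0.30) were lower. Of 16 genes of glutathione synthesis and cystine use 2 were higher and 9 lower, beside the same shares. The glutathione peroxidase Gpx2 was at least 557-fold higher and Ggt7 at least 33.6-fold higher, while the peptidase Ggt5 was at least 21.8-fold lower and the quinone reductase Nqo1 was lower (-3.64 ± 0.41).

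Of 20 genes of the amino acid stress response, 7 were higher and 5 lower, beside 24.8% of all genes higher and 22.5% lower. The transcription factor Atf3 was higher by 7.25 ± 0.49 and asparagine synthetase, Asns, by 1.59 ± 0.19 (limma adjusted p = 0.00120). The cystathionine lyase Cth (-4.96 ± 0.43) and Cebpb (-4.85 ± 0.34) were lower, and Atf4 itself did not pass (0.33 ± 0.18). Of 24 genes of amino acid sensing by mTORC1, 6 were higher and 3 lower, beside the same shares of all genes, with Tfeb at 1.82 ± 0.42 and Sesn1 at 1.26 ± 0.18, while Mtor did not pass (0.19 ± 0.23). Rragd passed at 4.07 ± 1.15 and lost the call when RMAPC-1, 3C3, CL19 or Fi1 was left out (adjusted p 0.0505 to 0.0602). Of 14 vesicular carriers and neurotransmitter enzymes 2 were higher and 2 lower, both smaller shares than over all genes. Ddc, which makes dopamine and serotonin, was higher by 9.37 ± 0.40, and the acetylcholine esterase Ache was at least 353-fold higher. Tyrosine hydroxylase, Th, was at least 2468-fold lower, and the vesicular glutamate carrier Slc17a6 was lower (-4.83 ± 0.21).

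Promoters, 250 bases before to 50 after the start of transcription, were given by RefSeq (GRCr8) for 59 of the 78 genes. The core of the amino acid response element, TGATGCAA on either strand, was found in 2 of them (3.39%), and in 0.743% of all 27457 promoters. These were Slc1a4 at -235 and Slc38a1 at -142, and the 30 bases around each match are shown with the motif in capitals, at chr14:98761779-98761808 and chr7:129681525-129681554, both on the minus strand. Slc38a1 was far higher in the stem cell lines, and Slc1a4 did not pass in either main comparison.
Slc1a4 promoter: cgcctccagcgTTGCATCAtccagccagca
Slc38a1 promoter: gggggaaactcTGATGCAAccaaccagtcc

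The core of the hypoxia response element, ACGTG on either strand, was in 18 of the 59 (30.5%) and in 19.7% of all promoters, among them Slc2a1, Slc1a3, Slc7a5, Slc7a6 and Slc38a9. The match of Slc2a1, a known target of the hypoxia pathway, lies at -51 on chr5:138002460-138002489, plus strand, and is shown as the example among the genes higher in the stem cell lines. The HNF1 half-site GTTAAT was in 3 promoters (5.08%) against 7.37% of all, and the GATA motif AGATAA in 3 (5.08%) against 11.3%. No motif searched holds another, and a match is no measure of binding.
Slc2a1 promoter: tcccgccccggACGTGgtcctcaggccccg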

How the data were processed

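Gene expression of 7 rat lines was read on 14 Agilent arrays of one colour, A and B per line. Per the file headers, the authors' scanner files were made with Agilent Feature Extraction 10.7.3.1, whose processed signal is an intensity after background subtraction and spatial detrending, on a design annotated to rn4. The deposited table of the series holds log2 values equal to the log2 of the processed signals, unscaled between arrays. The deposited flags, given as other columns of 0 or 1 per the file headers, marked spots well above background, saturated spots and outliers.

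From 43379 non-control spots per array, 65 to 193 outlier spots were left out. Where a probe's only spot on an array was an outlier, the probe took the mean of its other arrays, over all lines. Between 61.8% and 68.1% of spots per array were well above background, and the number of arrays limits the precision. The log2 processed signal minus the array's 75th percentile was averaged over the spots of a probe and over arrays A and B of a line. The brightest probe stood for a gene, and a gene was tested where some line had both its arrays well above background. Of 41012 probes, 20771 were given a current symbol through RefSeq and 20241 kept the file's name. The lmFit and eBayes functions of limma 3.58.1 (R 4.3.3; 3 groups, 4 residual degrees of freedom) compared groups of lines. P-values were two-sided and adjusted by Benjamini-Hochberg over all 24828 genes tested, with a threshold of 0.05, and they measure the spread between these lines, which may be partly technical. Scripts were tested on simulated data. Where no array of a group was well above background, the fold is a lower bound (at least), taken against the lowest signal called above background on each array, or the probe's own signal where higher. Such a bound holds for the processed signal and not after normexp correction. Values of second probes come from a fit of all probes.

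Named were the genes that passed in either main comparison, a list of carriers named whatever they did, and up to 4 passing members of each list with the largest difference. An untested gene of the set is not reported here. The genes, lists and rules were chosen with earlier results of these data known. Promoters and symbols came from RefSeq tables (GRCr8). The alternatives were quantile normalization, the percentile over detected probes, median centring, unscaled signals, normexp background correction with an offset of 50, no filter, a filter on all 14 arrays, the mean of probes, the line as a random block, also with array letter or slide as a block, and leaving out lines or arrays. Fits within slides were added after seeing the data. Arrays with the same letter did not deviate together (correlations of the deviations between lines from -0.241 to 0.185, median 0.0133), so letters were not taken as pairs. Plots were drawn with matplotlib 3.10.9.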

Additional observations from a re-analysis of the deposited data

Results flagged for a closer look

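Single arrays stood apart from the other 5 of their origin for 7 of 108 sets of 6 arrays examined over the 54 tested genes, by Dixon's test of the extreme value, which chance passes in about 1 in 20 sets of independent arrays. Each set here was 3 lines with 2 arrays each, so that rate is only a guide. RMAPC-1 gave 3 of them. Its array B was at 4.73 for Slc1a3, where the nearest bone marrow array was at 4.31, and at -2.70 for the inositol carrier Slc5a3, where the nearest was at -1.29. Its array A was at -4.94 for the retinal glutamate carrier Slc1a7, with the nearest at -5.32. For the GABA carrier Slc6a11, array A of CL19 was at -2.48 and the nearest at -4.10. For Slc38a11, array B of CL19 was at -6.75 and the nearest at -7.61. For Slc7a15, array B of 3C3 was the lowest at -6.13, with the nearest at -5.54. Among the blastocyst arrays, array B of Fi2 was at 3.23 for Slc38a4, with the nearest at 2.55.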

How the results depend on the processing

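The stem cell lines against RClone-2 kept 18 genes higher and 13 lower within 1.5 times under most alternatives. Tested only where all 14 arrays were above background, 10 were higher, and after normexp correction 7 were lower. Leaving out a line or array gave 16 to 22 higher and 8 to 13 lower. The blastocyst against the bone marrow lines (8 higher, 11 lower) moved more. The genes higher were 15 on unscaled signals, 0 after normexp correction (limma), 3 with the filter on all 14 arrays, 2 with the slide as a block, 0 within slides 1 and 3 and 1 to 6 on leaving out a line or array. The genes lower were 7 after quantile normalization, 5 with the percentile over detected probes, 6 after median centring, 2 on unscaled signals, 2 after normexp correction, 21 with no filter, 1 with the slide as a block, 0 within slides 1 and 3 and 3 to 11 on leaving out a line or array. For the blastocyst lines against RClone-2 (21 higher, 10 lower), 9 were higher after normexp correction and 11 with the filter on all 14 arrays, and leaving out a line or array gave 16 to 24 higher and 6 to 11 lower. For the bone marrow lines (20 higher, 11 lower), 12 were higher and 7 lower after normexp correction, 13 higher with the filter on all 14 arrays, and leaving out gave 15 to 21 higher and 9 to 11 lower. The filter tests fewer genes by construction, and otherwise the cause was not tested.

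The array letter as a replicate block, with the line as a random block, gave 22 genes higher and 13 lower for the stem cell lines against RClone-2, and 10 higher and 11 lower between the origins. The line as a random block alone gave 23 and 13, and 10 and 11. These fits count both arrays of a line.

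Signs turned for some genes between the origins, of which only Slc6a8 had passed. The largest of their main differences were -0.40 for Slc6a8, -0.39 for Slc7a7, 0.25 for Slc38a2 and -0.22 for Slc2a1. On unscaled signals Slc6a8 was 0.084, Slc2a1 0.26, Slc7a7 0.093 and Slc38a1 0.41. After quantile normalization Slc2a1 was 0.081 and Slc38a1 0.041, and Slc38a1 was 0.074 with the percentile over detected probes and 0.050 after median centring. After normexp correction Slc3a2 was -0.033 and Slc7a1 -0.025. With the slide as a block and within slides 1 and 3, Slc38a2 was -0.012 and Slc3a2 -0.0070. Within slides 1 and 3, Slc38a7 was -0.45 and Slc38a8 -0.32, where the main fit gave 0.18 and 0.087. Over the fits that left out a line or array, the difference ran from -0.15 to 0.18 for Slc2a4, from -0.062 to 0.12 for Slc3a2, from -0.073 to 0.14 for Slc7a1, from -0.041 to 0.36 for Slc7a6, from -0.77 to 0.054 for Slc7a7, from -0.17 to 0.035 for Slc38a1 and from -0.035 to 0.23 for Slc38a9. Against RClone-2 it ran from -0.067 to 0.59 for Slc36a1.

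A probe near background has no measured lower limit, so folds against RClone-2 that start from such a probe are bounds. Normexp correction gave smaller log2 differences, 5.19 for Slc38a1, 5.80 for Slc2a10 and 5.34 for Slc5a5. These lie below the bounds given above, which hold for the scanner's processed signal only.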
